A study of Caenorhabditis elegans with 2 samples.

Results

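Messenger RNA leaves the nucleus through a relay of proteins that load onto the transcript while it is made. The THO complex gathers on the nascent transcript and recruits the RNA helicase UAP56 (hel-1 in the worm) and an adaptor of the REF/ALY family, and together they form the TREX complex. The adaptor then hands the message to the export receptor, a dimer of NXF1 and NXT1, which carries it through the nuclear pore. The 9 genes described here are those of this relay that were listed by name: the adaptors aly-1, aly-2 and aly-3, the helicase hel-1, the THO subunits thoc-1, thoc-2 and thoc-7, and the receptor subunits nxf-1 and nxt-1. They were taken from 19973 protein-coding genes of the nuclear chromosomes, and aly-2 is also the gene whose tagged product was recovered.

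The measurements are chromatin immunoprecipitation with sequencing (ChIP-seq) of ALY-2 fused to eGFP, in whole Caenorhabditis elegans first-stage (L1) larvae of both sexes, with 2 biological replicates and no other condition. The strain, OP217, carries the insertion ddIs172 in an unc-119(ed3) III background, and both replicates share this genotype. The labels name aly-2 in the antibody field and eGFP-aly-2 as the target of the experiment. They do not describe the promoter, copy number or site of the insertion, and worms were taken whole, so the cells behind a peak are not known. Nothing says how the replicate cultures were kept apart, so their spread may be technical in part. The authors deposited a list of peaks for each replicate (26798 and 25463 peaks, background peaks included), a pooled list over both replicates (15675) and a final list of the 1446 pooled peaks of highest signal. Signal is the authors' value for a peak on a scale that is unstated. It is used to rank peaks within a list, rank 1 being the highest. Read depth is unknown, so no interval on a single signal can be given. A final peak has no replicate error of its own, and the rank of the peak in each replicate list is the only measure of spread.

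Of the 9 mRNA export genes, 4 had a final summit at the promoter, against 5.58% of all coding genes. The promoter window reached 1000 bp ahead of the 5′ end in the annotation and 200 bp into the gene. They were thoc-7, nxt-1, aly-2 and hel-1, that is 1 of the 3 THO genes, 1 of the 2 receptor genes, 1 of the 3 adaptor genes and the helicase gene. With each summit given to its nearest coding 5′ end alone the count was 2, hel-1 and nxt-1, since rpl-29 starts closer to the thoc-7 summit and rpb-12 to the aly-2 summit. The share of all coding genes under that rule was not counted, and the 5.58% does not apply to it. The others, nxf-1, thoc-1, thoc-2, aly-1 and aly-3, had no final summit there. No member had a final summit inside its gene body (2.32% of coding genes), and 1 member, thoc-2, had a final summit at its 3′ end, a window from 200 bp inside the gene to 500 bp past its end (3.15%). The members were chosen with earlier results of these data known, so these counts describe the 9 genes and carry no test.

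The longer lists placed some signal in nearly every promoter of the group. In the pooled list 8 of 9 members had a promoter summit (24.9% of coding genes) and 5 had a summit in the gene body (25.1%). At the 3′ end aly-1, aly-3 and thoc-2 had one, as did 3795 of the 19973 coding genes. In the replicate 1 list and in the replicate 2 list, 8 of 9 had a promoter summit (34.9% and 33.7% of coding genes), with aly-1 missing in replicate 1 and thoc-1 in replicate 2. The pooled signals of the 8 promoter summits had a median of 47.5, against 24.8 over the 4979 coding genes with such a summit. The final list ended at a signal of 42.7, and this edge parts them into a high and a low set. In the high set thoc-7, nxt-1, aly-2 and hel-1 had 97.9, 77.8, 64.5 and 60.9. In the low set nxf-1, thoc-2, thoc-1 and aly-3 had 34.2, 30.6, 18.3 and 16.4, with a gap of its own between thoc-2 and thoc-1.

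**Figure D1:**
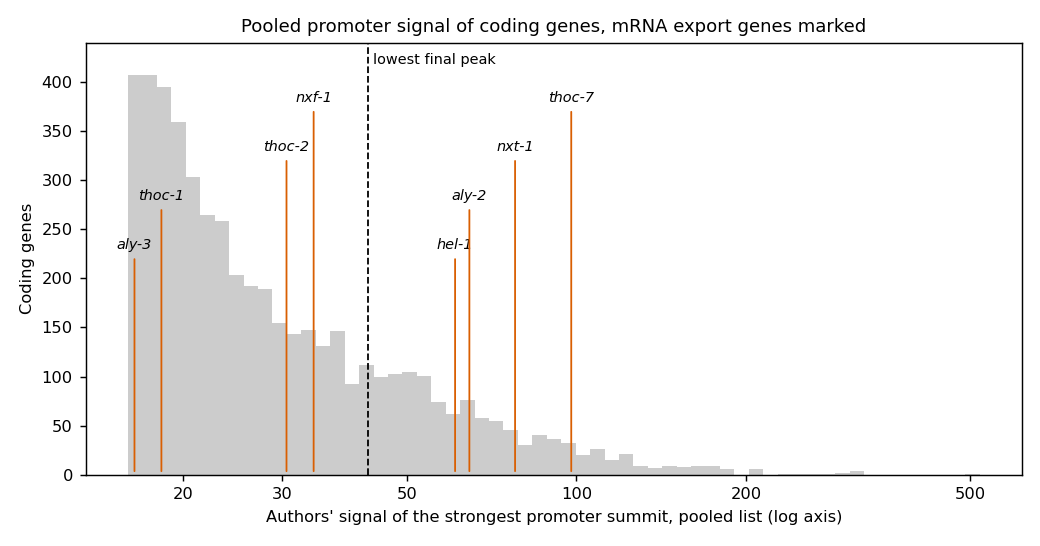
Histogram of the authors' signal of the strongest pooled summit in the promoter window (log axis) for the 4979 coding genes with one, with lines at the 8 mRNA export genes that have one and a dashed line at the lowest final peak. The lines for hel-1, aly-2, nxt-1 and thoc-7 lie at 60.9 to 97.9, right of the dashed line at 42.7, and the other 4 lie left of it.

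In each replicate every member of the high set ranked above every member of the low set, while the order within the high set was not stable. The sets were cut by pooled signal, and the pooled list is derived from both replicates. The separation in each replicate is thus in part built in and is no independent check. Ranks given as a percentage of the list, low meaning strong, averaged 1.35 ± 1.31 for thoc-7, 1.98 ± 1.07 for nxt-1, 3.25 ± 1.84 for aly-2 and 3.90 ± 2.88 for hel-1 (SD, n = 2 each). The replicate values of these 4 genes overlap, and the order changed between replicates: thoc-7, hel-1, aly-2, nxt-1 in replicate 1 and nxt-1, thoc-7, aly-2, hel-1 in replicate 2. The next was thoc-2 at 26.4 ± 23.5 (SD, n = 2), with 43.0 in replicate 1 and 9.85 in replicate 2, a spread wide enough that its mean less 1 SD reaches the values of hel-1. For nxf-1 the strongest summits of the replicates were 525 bp apart, so its 35.6 and 25.5 belong to different peaks and lie within the thoc-2 range. For aly-3 they were 155 bp apart, and its values, 67.7 in replicate 1 and rank 19600 of 25463 in replicate 2, lay clear of both nxf-1 and thoc-2. The promoter peaks of aly-1 and thoc-1 were each found in 1 replicate, at 73.4% of the replicate 2 list and at 59.7% of the replicate 1 list.

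**Figure D2:**
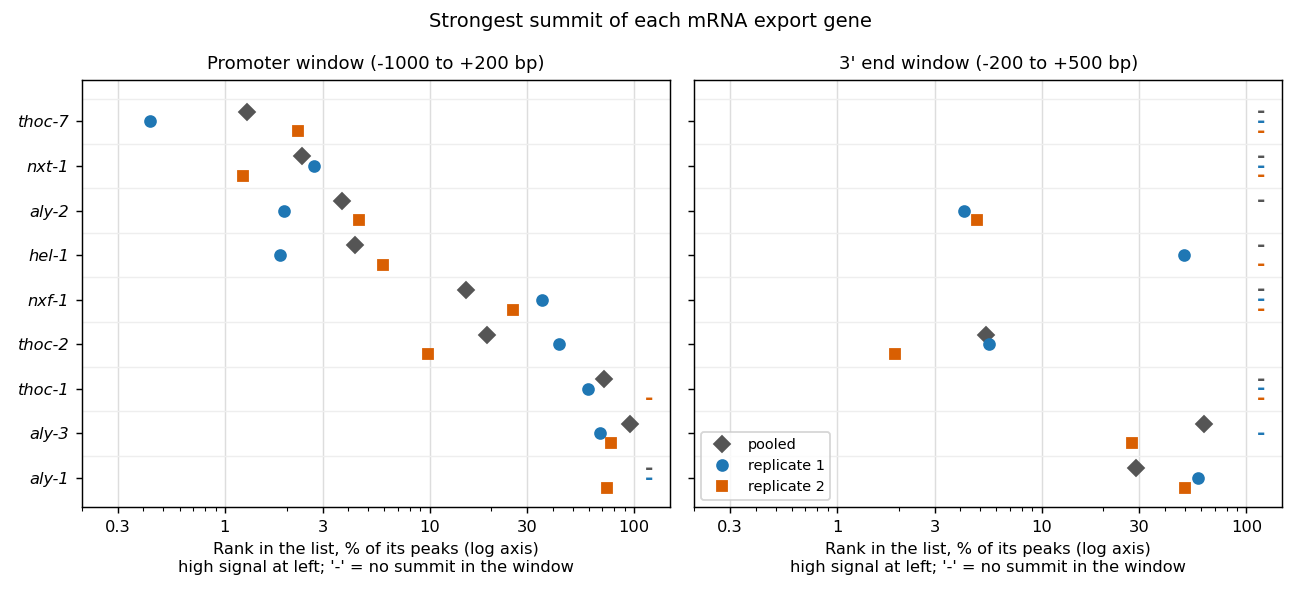
Rank of the strongest summit of each of the 9 genes in the promoter window and in the 3′ end window, as a percentage of the peaks in its list (log axis, strongest at left), for the pooled list and each replicate. A dash marks a list with no summit in the window. The upper 4 genes stay left of 6% in the promoter window in every list, and aly-2 has replicate points but a dash for the pooled list in the 3′ end window.

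The adaptor gene aly-2 (WBGene00000121, chromosome IV from 9147468 to 9148579, plus strand), the source of the tagged protein, had its final peak from 9146945 to 9147304. The summit, at 9147125, lay 343 bp upstream of the annotated 5′ end, outside every annotated gene. Its signal of 64.5 gave rank 585 in the final list, with rank 522 in replicate 1 and 1157 in replicate 2. The replicate summits were 9 bp apart. The stretch is a divergent promoter, since rpb-12, which encodes a subunit of RNA polymerase II, starts on the opposite strand and the summit lay 256 bp upstream of it. Thus the nearest coding 5′ end is that of rpb-12, not aly-2. The window of daf-10, a gene for an intraflagellar transport protein, also held the summit, 914 bp upstream of its 5′ end. A weaker pooled peak, of rank 2400, had its summit in the 3′ UTR of rpb-12 at 9146349, and stood at rank 3179 in replicate 1 and 2905 in replicate 2. The nearest coding 5′ end to that weaker summit was that of daf-10. The coding sequences of the 3 adaptor genes were 65.7% to 68.9% identical over their aligned bases, with no identical run over 14 bases. All words of 36 bases in the 3 genes and in the printed aly-2 windows occurred once in the nuclear reference genome. At that length no other place in the reference shares their sequence. The tagged insertion of the strain is not part of that count. Whether reads from the insertion add to the peaks at aly-2 was not tested. The read length is not stated in the labels or files used.

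The 201 bp around the aly-2 promoter summit, shown because this is the tagged gene's own promoter, are chrIV:9147025-9147225 on the plus strand of WBcel235 (ce11), from the RefSeq genome. Capitals here and in the sequences further on mark matches, on either strand, to 4 short motifs. The TATA box was searched as TATAAA. The GC box was searched as CCGCCC. The GA repeat was searched as GAGAGA. The T block was searched as TTTTTT.
aly-2 promoter summit: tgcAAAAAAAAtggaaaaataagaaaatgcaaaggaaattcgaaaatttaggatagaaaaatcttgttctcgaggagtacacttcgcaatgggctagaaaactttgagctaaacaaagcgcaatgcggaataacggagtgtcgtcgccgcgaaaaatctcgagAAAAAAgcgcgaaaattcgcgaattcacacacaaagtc
The window holds T blocks on the minus strand, printed here as runs of A, and no match to the other 3 motifs. Of the 1446 windows of this length around final summits, 56.6% hold a T block, 31.0% a GA repeat, 18.3% a TATA box and 5.12% a GC box. Its GC content was 38.8%, against a median of 39.3% over final windows (quartiles 34.8% and 44.8%).

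Past the 3′ end of aly-2, each replicate had a strong peak that the pooled list lacks. In replicate 1 the summit lay at 9148719, 140 bp past the annotated 3′ end, with a signal of 24.9 and rank 1118. In replicate 2 a summit lay at 9148643, 64 bp past the end, with a signal of 25.5 and rank 1222, and a further one at 9148849, 270 bp past it, with rank 1660. The ranks of the strongest, as a percentage of each list, were 4.49 ± 0.443 (SD, n = 2), near those of the aly-2 promoter peak. The nearest pooled summit was the promoter one, 1594 bp from the replicate 1 summit, so the final list, drawn from the pooled list, could not hold this site. With each replicate list cut to its own strongest 1446 peaks, aly-2 was the 1 member with such a summit at its 3′ end in replicate 1 (2.91% of coding genes), and aly-2 and thoc-2 were the 2 in replicate 2 (3.30%). Of the 1446 in replicate 1, 897 overlapped one of the 1446 in replicate 2 by at least 1 bp, and 2 of these 897 had no pooled peak over them. The aly-2 site was 1 of these 2. The other lay on the X chromosome, with its summit at 1451939 in an intron of W05H7.1 and a pooled summit 364 bp away. In the same count from replicate 2, 905 peaks overlapped and the aly-2 site was the 1 peak without a pooled one. This count was made after the aly-2 peaks had been seen.

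The sequence around the replicate 1 summit, printed since the summits of both replicates fall in it or within 30 bp of its ends, is chrIV:9148619-9148819 on the plus strand of WBcel235.
aly-2 3′ end summit: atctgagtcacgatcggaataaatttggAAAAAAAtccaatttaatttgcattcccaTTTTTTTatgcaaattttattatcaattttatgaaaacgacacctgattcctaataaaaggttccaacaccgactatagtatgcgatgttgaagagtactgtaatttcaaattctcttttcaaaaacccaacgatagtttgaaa
It begins past the annotated end of aly-2, holds no annotated exon, and has a GC content of 29.9%. The pseudogene WBGene00043283 starts beyond the replicate 1 summit, at 9148949. Of its words of 36 bases, 37.6% occurred once in the reference genome, against all of those in the printed window. Whether repeated sequence, the tagged insertion or the pooled peak calling has a part in the missing pooled peak was not tested.

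**Figure D3:**
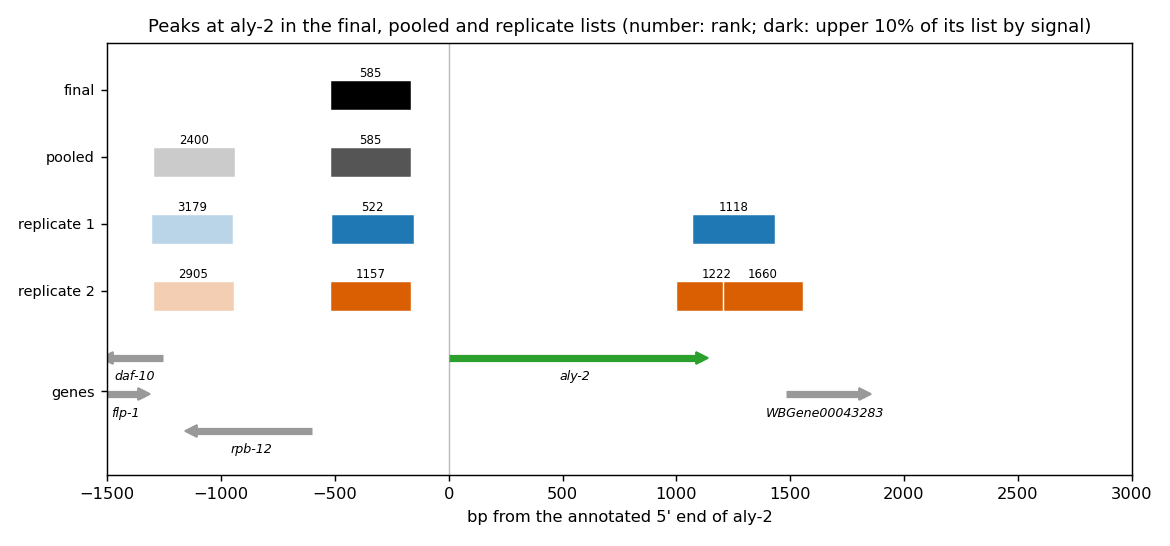
Peaks of the 4 lists (boxes, with the rank in the list above each) along the aly-2 locus, in bp from its annotated 5′ end, with the gene in green and its neighbours in grey. The promoter peak stands in all 4 lists, at ranks 585, 585, 522 and 1157, and the peaks past the 3′ end, at ranks 1118, 1222 and 1660, stand in the replicate lists.

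The adaptor paralogs had little signal. aly-1 (WBGene00000120, chromosome IV from 9108931 to 9109753) had no pooled promoter summit. Its strongest pooled summit, with a signal of 25.8 and rank 4548, lay 195 bp past its 3′ end, with rank 15562 in replicate 1 and 12737 in replicate 2. aly-3 (WBGene00000122, chromosome IV from 12123282 to 12124809) had a pooled promoter summit 336 bp upstream of the 5′ end, with a signal of 16.4 and rank 14917 of 15675. That summit also lay 64 bp past the 3′ end of M18.6. A stronger pooled summit, with a signal of 19.3 and rank 9769, lay 20 bp inside the 3′ end of aly-3. In replicate 2 a summit stood 21 bp past that end at rank 7027, and replicate 1 had none in the 3′ end window. Among the adaptor genes a final peak thus stood at the promoter of aly-2 and not at those of aly-1 or aly-3.

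The helicase gene hel-1 (WBGene00001840, chromosome II from 8326852 to 8328870, minus strand) encodes the ATPase that loads the adaptor onto RNA. Its final summit, at 8329132, lay 262 bp upstream of the annotated 5′ end, with a signal of 60.9 and rank 677. It ranked 500 in replicate 1 and 1511 in replicate 2, just below the 1446 of highest signal there, and the replicate summits were 29 bp apart. The position falls in an intron of C26D10.3, a gene on the opposite strand that spans all of hel-1. It was 630 bp upstream of C26D10.4, so the promoter window of C26D10.4 holds the summit too. Its nearest coding 5′ end was that of hel-1. By the authors' q-value the summit ranked 1324 in the pooled list, lower than by signal. Inside the gene the strongest pooled summit had rank 11353.

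The THO complex binds nascent transcripts, and its genes differed widely. thoc-7 (WBGene00007195, chromosome IV from 13882734 to 13884177, plus strand) had the highest promoter signal of the 9 genes, 97.9 at rank 202. In replicate 1 its signal was 60.8 and in replicate 2 it was 35.3, at 0.429% and 2.28% of those lists, with 11 bp between the replicate summits. The summit, at 13881991, was 743 bp upstream of the annotated 5′ end of thoc-7. It was 234 bp upstream of rpl-29, the ribosomal protein gene that lies in between on the same strand. The gap between rpl-29 and thoc-7 held no pooled summit, and in replicate 2 a summit of rank 12938 there. The final summit also lay 445 bp past the 3′ end of B0513.4, a gene on the same strand. The nearest coding 5′ end to the final peak is thus that of rpl-29, and the place of the peak in the thoc-7 window depends on the 1000 bp reach.

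The windows around the hel-1 and thoc-7 summits are shown beside each other because they differ in base composition and motifs from that of aly-2, and both are given 5′ to 3′ on the strand of the gene: chrII:8329032-8329232 on the minus strand and chrIV:13881891-13882091 on the plus strand of WBcel235.
hel-1 promoter summit: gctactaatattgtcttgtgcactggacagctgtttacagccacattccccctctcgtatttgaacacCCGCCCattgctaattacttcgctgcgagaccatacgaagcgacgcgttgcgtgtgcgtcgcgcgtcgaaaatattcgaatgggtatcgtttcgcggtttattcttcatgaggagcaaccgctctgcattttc
thoc-7 promoter summit: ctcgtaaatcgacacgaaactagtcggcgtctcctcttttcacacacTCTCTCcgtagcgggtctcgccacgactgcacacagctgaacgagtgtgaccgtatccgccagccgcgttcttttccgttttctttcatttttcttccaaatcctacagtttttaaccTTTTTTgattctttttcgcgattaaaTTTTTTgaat
The hel-1 window had a GC content of 49.8%, above the upper quartile of final windows, and holds a GC box and no T block. The thoc-7 window had 44.3%, and holds a GA repeat, on the minus strand, and T blocks. None of the printed windows matched the TATA box. A match is a run of letters and is not a mapped binding site.

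thoc-2 (WBGene00015813, chromosome III from 6368042 to 6373904, plus strand) had its final peak at the other end of the gene. The summit, at 6374066, lay 162 bp past the annotated 3′ end, with a signal of 55.0 and rank 834, and it ranked 1483 in replicate 1 and 486 in replicate 2. The replicate summits were 88 bp apart. The ribosomal protein gene rps-13 runs toward thoc-2 from the opposite side and ends 192 bp from it, so the summit was also 31 bp past the 3′ end of rps-13. The peak itself, from 6373886 to 6374245, is wider than the gap and reaches into both genes. The replicate 2 summit, at 6374020, lay in the gap, and the replicate 1 summit, at 6374108, lay inside the 3′ UTR of rps-13, which ends at 6374097. To which gene the peak belongs cannot be told apart. At its promoter, 165 bp upstream of the 5′ end, thoc-2 had a pooled summit of rank 2990, which lay in the 5′ UTR of the divergent gene C56G2.15. In replicate 1 that promoter ranked 11528 and in replicate 2 it ranked 2509.

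The stretch between the convergent ends of thoc-2 and rps-13, printed because it holds the summit, is chrIII:6373905-6374096 on the plus strand of WBcel235, 192 bp in all.
thoc-2 to rps-13: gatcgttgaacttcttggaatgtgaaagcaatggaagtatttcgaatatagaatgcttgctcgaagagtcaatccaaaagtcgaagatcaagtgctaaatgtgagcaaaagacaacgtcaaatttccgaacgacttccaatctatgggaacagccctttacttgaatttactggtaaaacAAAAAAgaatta
It had a GC content of 36.5%, with a T block on the minus strand near its rps-13 side and no other motif match. thoc-1 (WBGene00020172, chromosome II from 702107 to 708608) was the weakest of the 3 THO genes: its pooled promoter summit, 468 bp upstream of the 5′ end, had a signal of 18.3 and rank 11159. Replicate 1 had a summit there at rank 16003, and replicate 2 had none in the window.

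The receptor subunits went apart as well. nxf-1 (WBGene00003834, chromosome V from 14411649 to 14415014, minus strand) encodes the large subunit, which binds the message and the pore. Its strongest pooled summit lay 341 bp upstream of its 5′ end, at 14415355, with a signal of 34.2 and rank 2366. That summit was 144 bp upstream of the divergent gene C15H11.11. In replicate 2 a summit stood 293 bp upstream, at rank 6487, while the only replicate 1 summit in the window was 818 bp upstream, at rank 9537. These 293 bp and 818 bp summits do not mark the same site. Weaker peaks overlapped the replicate 1 peak, with summits 758 bp upstream in the pooled list, at rank 14075, and 614 bp upstream in replicate 2, at rank 18560. A pooled summit in the nxf-1 3′ UTR, at 14412096, had rank 3343, with rank 3248 in replicate 1 and 10942 in replicate 2. Beyond that summit the end of nxf-1 overlaps gnrr-2, which is read from the opposite strand.

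**Figure D4:**
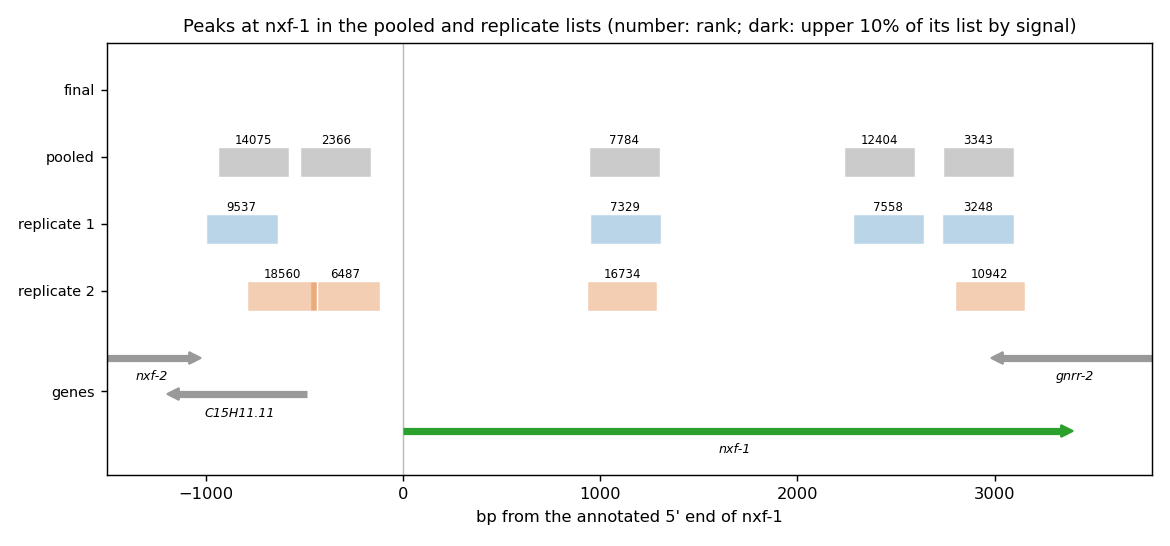
Peaks of the 4 lists (boxes, with ranks) along nxf-1, in bp from its annotated 5′ end in the direction of transcription, with the gene in green. The row of the final list is empty, and the pooled promoter peak at rank 2366 stands over the replicate 2 peak of rank 6487, with no replicate 1 peak at its summit.

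nxt-1 (WBGene00003836, chromosome I from 2929777 to 2931361, plus strand) encodes the small subunit that stabilises NXF-1. Its final peak had the second highest signal of the group, 77.8 at rank 375, with rank 733 in replicate 1 and 311 in replicate 2. The replicate summits were 4 bp apart, the closest agreement among the 9 genes. The summit, at 2929697, lay 80 bp upstream of nxt-1, inside the 148 bp between trap-1 and nxt-1, which are read in the same direction. It was therefore also 69 bp past the 3′ end of trap-1, a gene for a subunit of the translocon-associated complex of the endoplasmic reticulum. Upstream of trap-1, the nearest pooled summit had rank 13410. The pair thus showed the reverse of rpl-29 and thoc-7, where the strong peak lay ahead of the first gene and not in the gap. The nxt-1 summit window had a GC content of 31.8%, below the lower quartile of final windows. The summit lay in no other coding promoter window, whereas those of thoc-7, aly-2 and hel-1 were shared, as were those of 53.7% of the 1115 coding genes with one in the final list.

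**Figure D5:**
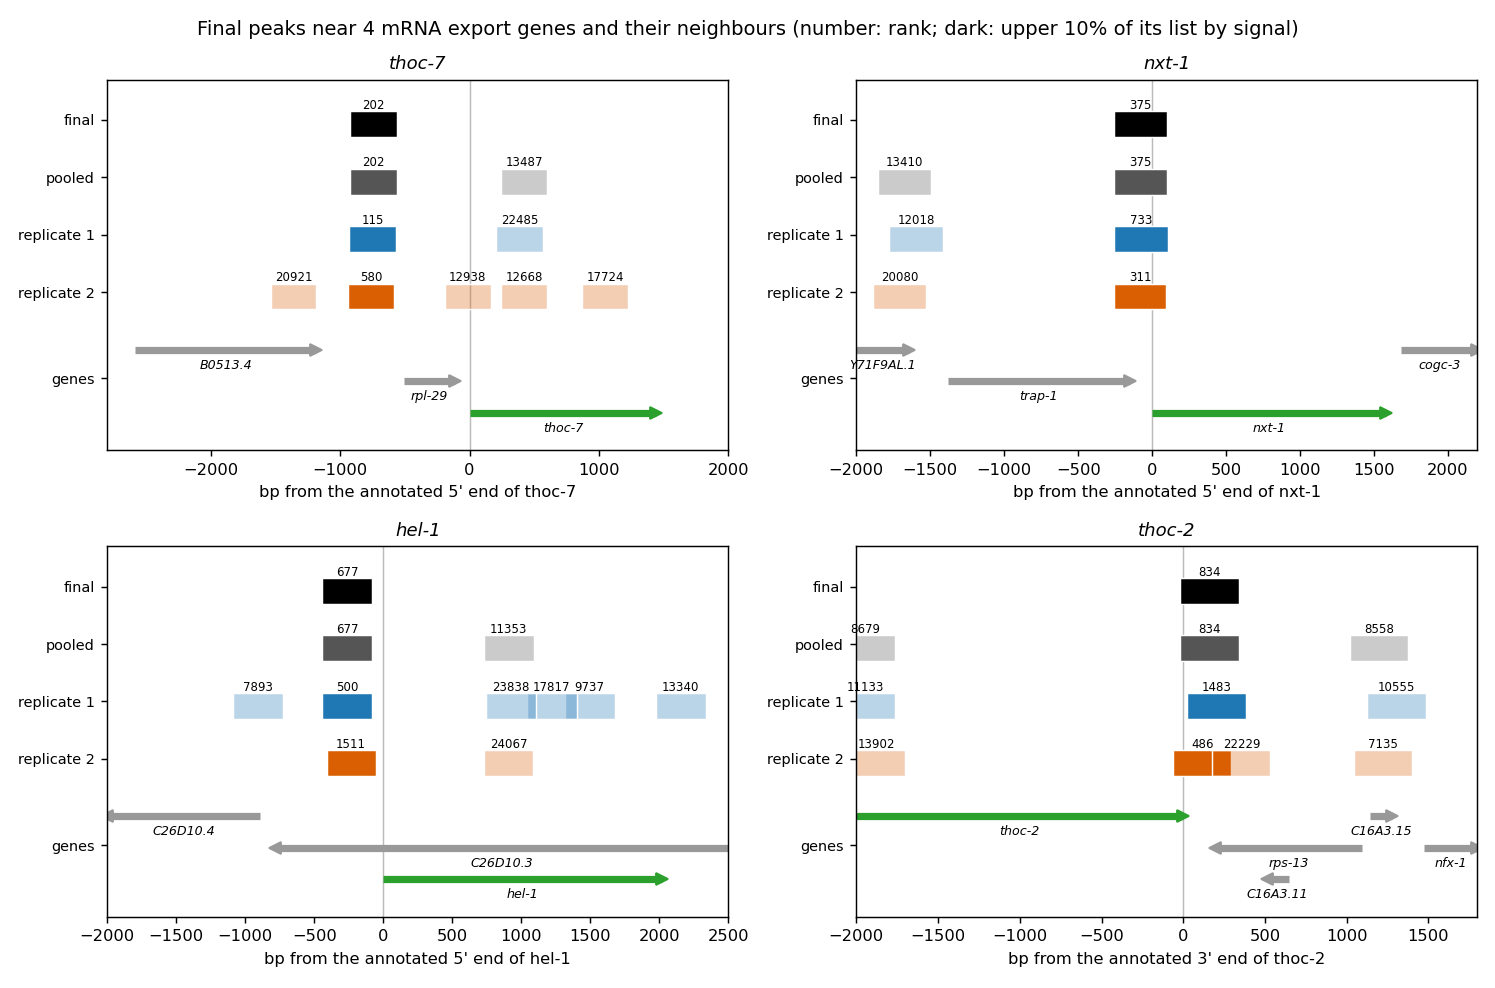
Peaks of the 4 lists (boxes, with ranks) at thoc-7, nxt-1 and hel-1, in bp from the annotated 5′ end, and at thoc-2, in bp from the annotated 3′ end, each in the direction of transcription. The final peak lies ahead of rpl-29 at thoc-7, in the gap after trap-1 at nxt-1, within C26D10.3 at hel-1 and across the gap between convergent 3′ ends at thoc-2.

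Genes that work beside this relay were described from a list of 22 names, of which 19 matched the annotation: cap-binding, exon junction, nuclear poly(A)-binding, TREX-2, pore-side export factor, further THO and SR protein genes, and nxf-2 of the receptor family. Of these 19, 8 had a final promoter summit, at 7 distinct summits, against 5.58% of coding genes. The count was 5 with each summit given to its nearest coding 5′ end alone, and 5 in the upper 50% of the final list. The share of all coding genes was not counted under either rule, and the 5.58% does not apply to them. The highest was acin-1, the homologue of the exon junction-associated protein acinus, with a signal of 143 at rank 79, at a summit shared with the replication gene cdc-6. pabp-2, for a nuclear poly(A)-binding protein, had 71.6 at a summit shared with C17E4.6. The SR protein genes, whose products bind exons and help splicing, gave 5 of the 8, out of 8 SR genes listed. Of the other SR genes, rsp-5 had a pooled promoter summit with a signal of 42.2 at rank 1472, just below the final list, and rsp-8 had one with 35.1 at rank 2221. rsp-4 had no summit in any window of any list. rsp-1 and rsp-2 lie head to head and share a summit with a signal of 68.7. rsp-6, rsp-3 and rsp-7 had 59.8, 55.5 and 52.7, with the rsp-3 summit shared with spin-4 and that of rsp-7 with snu-13, a gene for a small ribonucleoprotein of the spliceosome. thoc-5, a further THO subunit, had 49.8, with rank 713 in replicate 1 and 2103 in replicate 2. The cap-binding genes ncbp-1 and ncbp-2, with pooled ranks of 10821 and 3112, and thoc-3, with 5736, were outside the final list. So were the exon junction genes mag-1, at pooled promoter rank 7879, and rnp-4, with no pooled summit in any window. The pore-side factor gene ddx-19 and the TREX-2 gene dss-1 had pooled promoter ranks of 3275 and 14367, also outside it. The receptor family gene nxf-2 had no pooled promoter summit.

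Restricted to 1 replicate at a time, the promoter set changed by a single gene. Among the 1446 peaks of highest signal in replicate 1 the same 4 members had a promoter summit (5.28% of coding genes), and in replicate 2 thoc-7, nxt-1 and aly-2 did (5.08%), with hel-1 at rank 1511 outside. Likeness to aly-2 in pooled, replicate 1 and replicate 2 rank was taken as the smallest sum of log10 rank differences over the 3 lists, among 1104 genes. Genes that share the aly-2 summit, such as rpb-12 and daf-10, were left out. The coding genes most like it were then F15D3.6 and timm-23, which share a summit at ranks 546, 545 and 1094, and spat-2 at ranks 638, 543 and 961. timm-23 encodes part of the protein import channel of the inner mitochondrial membrane.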

How the data were processed

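Per the readme text that came with the replicates, the authors made narrowPeak lists from each replicate alignment, and from both together, with a control alignment, and derived the final list by thresholding on the irreproducible discovery rate. Aligner, peak caller, versions and threshold: not given in the sources used here. The deposited signal value of each peak (column 7) and its −log10 q-value (column 9, deposited by the authors' caller) were used to rank peaks within a list. Summits were taken as column 2 + column 10 + 1, counted from 1. The library size range is 150 to 350 bp, per the labels. Lists on ce11 were used, and the ce10 lists were not analysed here. Peak positions fell within the chromosome lengths of WBcel235. Genes came from Ensembl release 115, sequence from RefSeq.

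Windows were assigned in Python 3.11.15 with pandas 2.3.3. The promoter window was checked on planted summits, and the gene body and 3′ end windows were not. There is 1 group, so no test between conditions was made. The members, partner list and windows were chosen with earlier results of these data known. The text names the 9 members, genes sharing their strongest summits, unc-119, partner genes with a final summit, and the 3 genes of most like rank to aly-2. Those 3 were sought among genes that do not share the aly-2 summit. The 4 motifs were chosen, and the partner genes without a final promoter summit were added, after values were seen.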

Additional observations from a re-analysis of the deposited data

How the results depend on the processing

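Of the 4 members with a final promoter summit, 2 (hel-1 and nxt-1) kept it when each summit went to its nearest coding 5′ end alone, since rpl-29 and rpb-12 start closer to the other 2 summits. With a 500 bp window thoc-7 left and 3 remained. Counted in the strongest 1446 peaks of the remaining replicate, there were 3 without replicate 1 and 4 without replicate 2. The upper 50% of the final list, overlap of the whole peak with the window, and 5′ ends of any coding transcript each gave 4. Partner genes went from 8 to 5 by nearest 5′ end and to 5 in the upper 50%, and ranged from 7 to 8 with 1 replicate left out. Counted by overlap of the peak, 2 members (nxt-1 and thoc-2) had a final peak over the gene body, against 0 by summit. The share of coding genes given earlier for the gene body is by summit. Shares of all coding genes were counted for the main settings and the single replicate lists, and not for the other settings named here. At the 3′ end, leaving out a replicate gave from 1 to 2 members against 1, with aly-2 in place of thoc-2 without replicate 2. The median rank of promoter summits, 9.71% of the pooled list, was from 7.89% to 19.2% in the single replicate lists. Ordering by q-value moved the median pooled rank from 1521.5 to 1847. No paired analysis was possible because there is 1 group. Depth is unknown, which limits every rank, above all those in the background part of the lists.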

Other observations

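unc-119, the gene mutated in the background of the strain, had no pooled summit in its promoter window. Its strongest pooled summit, in an intron at 10906186 on chromosome III, had rank 7027. Replicate 1 had a summit at 10906189, at rank 2802. The only replicate 2 summit in the gene was elsewhere, at 10908817, at rank 11936. Within 20000 bp of the aly-2 5′ end the pooled list held 7 summits, against a median of 6 over the 3281 coding genes of chromosome IV. The replicate lists held 18 and 17, against medians of 11 and 10, and 91.0% and 90.6% of those genes had no more. Within 10000 bp the counts in the pooled, replicate 1 and replicate 2 lists were 5, 6 and 11, against medians of 3, 5 and 5. There 81.5%, 64.7% and 95.1% of those genes had no more, so the replicates differed in the narrower window.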
